A study of Homo sapiens with 8 samples.

Results

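The peroxiredoxins PRDX1 to PRDX6, thioredoxin (TXN), thioredoxin reductase 1 (TXNRD1), superoxide dismutase 1 (SOD1) and glutathione peroxidase 4 (GPX4) were followed as 1 group of antioxidant genes, chosen by name as 10 of the 63568 genes in the deposited count table, and all 10 had reads. MIAPaCa-2, a human pancreatic cancer cell line, carried either a control shRNA (control cells) or an shRNA against METTL3 (METTL3-KD cells), the catalytic subunit of the complex that writes N6-methyladenosine (m6A) on mRNA. MeRIP-seq sequences RNA fragments pulled down with an anti-m6A antibody beside an input, a part of the same fragmented RNA that was set aside before the pull-down. The study used it to find RNAs whose methylation and level differed between control and METTL3-KD cells, and the input gave the RNA level. The 8 deposited samples were 4 libraries, the control input, the control m6A library and the same pair from METTL3-KD cells, each sequenced on 2 lanes, which were summed, so that every value below comes from 1 library per condition. Lanes repeat the sequencing and not the cells, and no p-value between conditions was possible.

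Cells turn superoxide into hydrogen peroxide with superoxide dismutases and then remove the peroxide with peroxiredoxins, glutathione peroxidases and catalase. Peroxiredoxins react through a cysteine that most of them have reduced again by thioredoxin, which is itself reduced by thioredoxin reductase with NADPH. These enzymes are abundant in most proliferating cells, and several of their genes are targets of the transcription factor NRF2.

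The lanes held between 906240 and 1628753 counted reads, more in the control input (3237968 in all) than in the METTL3-KD input (1833005). The control reads came from fewer distinct positions, 9291 against 52141, and 2730 genes had a control read against 10463 in METTL3-KD cells. In the control input, reads per gene gathered at 511.3 reads (the lower mode) and at 1036.9 reads, and 59.4% of the 2212 genes over the count minimum of 10 fell close to one or the other. In the METTL3-KD input the modes lay at 19.4 and 35.5 reads and held 22.4% of the genes. Reads are therefore also given below as multiples of the lower mode of their own input, with exact 95% Poisson intervals in which a multiple is counted as 1 event; how many molecules a mode stands for is not known. METTL3 had 0 reads in each of the 4 input lanes, which at 3 lower modes allows up to 473.7 CPM (reads relative to library size) in the control and 31.7 in METTL3-KD cells, so the knockdown could not be checked from these counts. KRT8, KRT18 and VIM, which pancreatic carcinoma cell lines of this kind express, were among the marker genes with reads in both inputs, EPCAM and CDH1 had 0 reads, and the acinar, endocrine and endothelial markers found in the table (PRSS1, CPA1, CELA3A, INS, GCG and VWF) had 0 reads in both. PTPRC, COL1A1 and DCN were also at 0, whereas KRT19 had 1 control and 201 METTL3-KD reads, CD68 0 and 43, and COL1A2 1804 and 353; the part of other cells in the results was not tested.

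Of the 10 antioxidant genes, 7 had reads in both inputs and 3 (PRDX2, PRDX3 and PRDX4) had reads only in the METTL3-KD input. Together they took 5336 control reads, 0.165% of that library (95% Wilson interval 0.16 to 0.169), and 2544 METTL3-KD reads, 0.139% (0.134 to 0.144). All intervals of reads here cover counting error only, because the reads carry no molecular identifiers and are not independent molecules. In bulk RNA, fewer cells with a transcript and less of it per cell cannot be told apart. Their share was alike in the lanes of each input, 0.163% and 0.166% in the control and 0.138% and 0.14% in METTL3-KD cells.

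**Figure D1:**
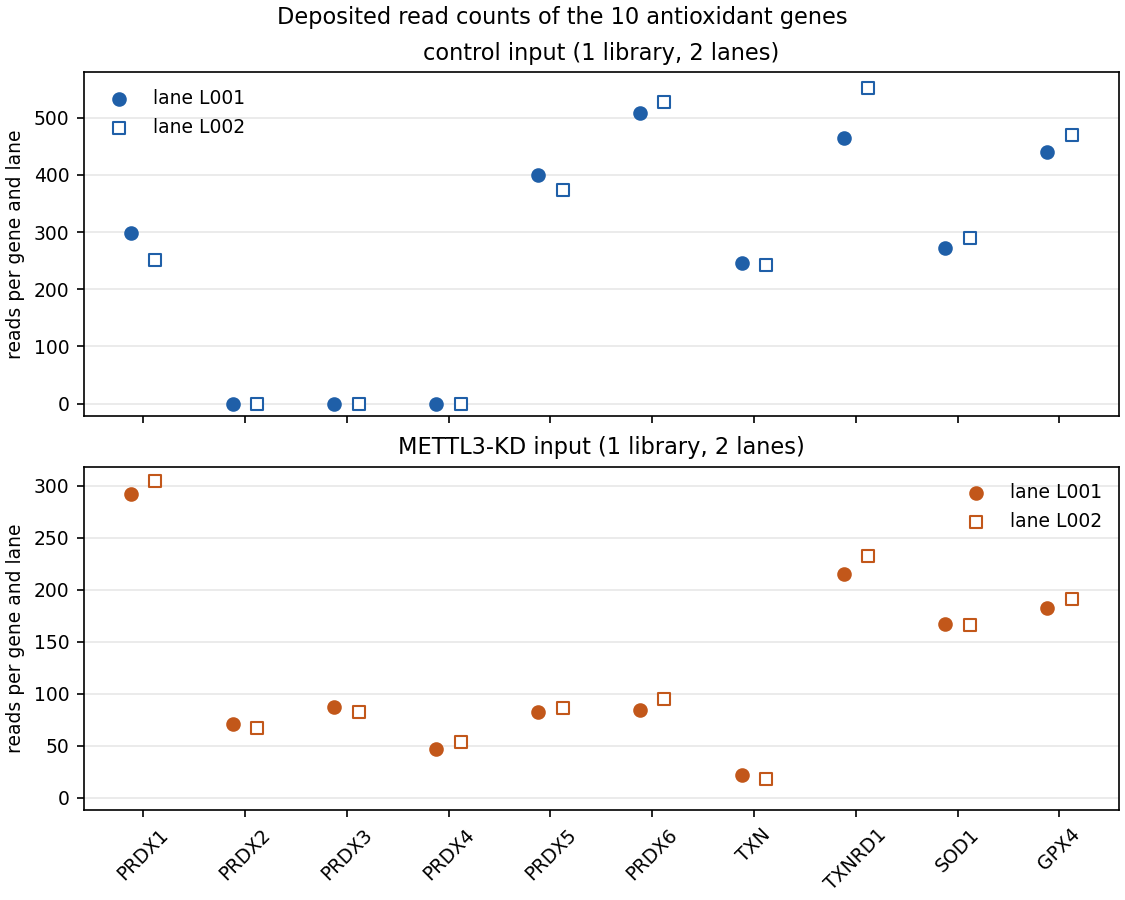
Deposited read counts (vertical axis, linear from 0, different in the upper and lower plot) of the 10 antioxidant genes in each lane of the control input (upper) and the METTL3-KD input (lower). Filled circles and open squares are the lanes of 1 library; PRDX2, PRDX3 and PRDX4 lie at 0 in both control lanes, and the lanes of the METTL3-KD input lie close together for each gene.

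PRDX1 and PRDX2 are the abundant cytosolic peroxiredoxins. PRDX1 (ENSG00000117450.9, chr1:45976586-46008404, minus strand, hg19) was counted 298 and 252 times in the control lanes, against 292 and 304 times in those of METTL3-KD cells. The counts per gene were thus similar in the 2 inputs, although the METTL3-KD library was the smaller. With TMM scaling (a trimmed mean of log ratios that sets the library sizes) and a prior count of 2, the log2 ratio of METTL3-KD over control was 2.30 (exact 95% Clopper-Pearson interval 2.14 to 2.48), a 4.93-fold higher scaled count. PRDX1 was the only one of the 7 genes with reads in both inputs to pass a log2 ratio of 2, the fold threshold of the study, and it fell under that threshold, to 0.93 and 1.98, with total counts and with division by the lower mode.

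The PRDX1 value is uncertain for another reason. MMACHC, a cobalamin metabolism gene on the opposite strand whose exons overlap the end of PRDX1, had exactly the same control counts, 298 and 252 reads, but 22 and 15 in METTL3-KD cells. In the annotation used here, 366 nt of the PRDX1 transcript (38.7% of its 945 nt) lay in stretches of at least 75 nt that MMACHC transcripts also hold. The strand setting of the counting is not given in the sources used here, so whether the 550 control reads came from PRDX1 or from MMACHC cannot be told apart. No other antioxidant gene with control reads shared its control counts with a gene on its chromosome.

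PRDX2 (ENSG00000167815.7, chr19:12907634-12912614, minus strand) had no read in either control lane (0 and 0), whereas the METTL3-KD lanes held 71 and 67. The control input thus held no read of a gene that METTL3-KD cells showed in both lanes. An antisense transcript, ENSG00000267062, and the pseudogene PRDX2P4 hold stretches that make up 29.9% of its transcript, so part of these reads could belong to them. A control m6A peak lay at chr19:12907929-12908031, with its summit at nt 582 of the 925 nt transcript, in the last of its 6 exons. It covered 52 coding bases of that exon and 51 bases of the intron before it, inside a stretch where the annotation also places HOOK2 and ENSG00000267062. Its sequence on the PRDX2 strand is shown with the word in which METTL3 methylates an A, which is 5 bases long (A, G or T, then A or G, then A, then C, then A, C or T). Capitals mark that word, and the lower-case run that ends in ag before tttgtcccg is the end of the intron.
PRDX2 peak: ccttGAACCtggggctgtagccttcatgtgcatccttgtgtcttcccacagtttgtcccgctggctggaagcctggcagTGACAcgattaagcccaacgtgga

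PRDX3, the mitochondrial peroxiredoxin (ENSG00000165672.5, chr10:120927232-120938324, minus strand), was likewise at 0 in both control lanes and had METTL3-KD counts of 87 and 82. Its control m6A peak, chr10:120927620-120927719, lay in the 3′UTR, in the last of 7 exons, with the summit at nt 1115 of 1553. The word nearest the summit, its A 28 bases away, stands in the 25-base window chr10:120927686-120927710, shown on the gene strand in the same way.
PRDX3 peak window: gtctcaatggAAACActcttctttc

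PRDX4, the peroxiredoxin of the endoplasmic reticulum (ENSG00000123131.8, chrX:23682379-23704514, plus strand), was at 0 in both control lanes too, with METTL3-KD counts of 47 and 54, the lowest of the 3. Its control m6A peak, chrX:23685804-23685908, lay wholly within coding sequence of the first of 7 exons, with the summit at nt 247 of 956. Both words in it start with GG, as in the form most often methylated, and the A of the second lies 2 bases from the summit.
PRDX4 peak: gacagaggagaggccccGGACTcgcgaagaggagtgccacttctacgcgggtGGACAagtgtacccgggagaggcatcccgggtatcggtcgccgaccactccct

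PRDX2, PRDX3 and PRDX4 thus shared a pattern of 0 control reads, a METTL3-KD count between 101 and 169 reads and 1 control m6A peak each. A floor of 3 reads set their scaled counts at least 210.4-fold, 257.6-fold and 154.0-fold higher in METTL3-KD cells, and with total counts at least 81.3-fold, 99.5-fold and 59.5-fold, which bounds the reads and not the RNA level. With 3 lower modes in place of 3 reads, the count of 0 allowed up to 294.4 TMM-scaled CPM in the control, above the 121.1, 148.3 and 88.7 measured in METTL3-KD cells. On that measure a lower level in the control was not detectable at this depth for any of them. After division by the lower mode their log2 ratios were 1.65, 1.86 and 1.36, under the threshold. With 0 control reads these values depend on the prior count, which is in multiples in that setting. A count of 0 was also the common state in the control: 74.3% of the 9931 genes with at least 10 reads over both inputs had 0 control reads.

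PRDX5, found in mitochondria, peroxisomes and the cytosol (ENSG00000126432.9, chr11:64085593-64089283, plus strand), had control counts of 400 and 373 and METTL3-KD counts of 82 and 86. Its log2 ratio was -0.01 (-0.26 to 0.23), the smallest of the 10 in size, and it lay above 0 in 7 of the 12 alternative settings. PRDX6, which uses a single active cysteine and is recharged by glutathione in place of thioredoxin (ENSG00000117592.8, chr1:173446469-173457954, plus strand), had control counts of 508 and 528, the most of any of the 10 genes in that input, and METTL3-KD counts of 84 and 95. Its log2 ratio was -0.34 (-0.58 to -0.11), and with the lanes as replicates in DESeq2 it was 0.22. Neither gene had an m6A peak in either list, and over the settings run they stayed between -1.70 and 0.55.

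TXN, the small protein that hands electrons to the peroxiredoxins (ENSG00000136810.8, chr9:113006090-113018787, minus strand), had control counts of 246 and 242 and METTL3-KD counts of 22 and 18. These were the fewest METTL3-KD reads among the 10 genes and the fewest control reads among the 7 with any. Its log2 ratio was -1.40 (-1.92 to -0.95), a 2.64-fold lower scaled count and the only ratio of the 10 under -1 in the reported scaling, and it ranged from -2.74 with total counts, past the threshold, to -0.58 after division by the lower mode. TXNRD1, the selenoprotein that reduces it (ENSG00000198431.11, chr12:104609557-104744085, plus strand), went the other way, at 464 and 552 in the control lanes and 215 and 232 after knockdown. Its log2 ratio was 1.01 (0.84 to 1.17), but it was -0.36 with total counts. The thioredoxin pair had no m6A peak in either list.

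SOD1, the cytosolic copper and zinc superoxide dismutase (ENSG00000142168.10, chr21:33031979-33041244, plus strand), had control counts of 273 and 290 and METTL3-KD counts of 167 and 166, with a log2 ratio of 1.43 (1.24 to 1.63). Alone among the 7 genes with control reads it had a control m6A peak, in the first of 5 exons, with the summit at nt 98 of 895. The peak covered 30 bases of 5′UTR and 70 coding bases.

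GPX4, the selenoprotein that reduces lipid peroxides in membranes (ENSG00000167468.12, chr19:1103981-1106790, plus strand), had control counts of 440 and 470 and METTL3-KD counts of 182 and 191. Its log2 ratio was 0.90 (0.73 to 1.08) and -0.46 with total counts, and it had no m6A peak. SOD1 kept a ratio above 0 in all 12 alternative settings, down to 0.06 with total counts, and GPX4 in all but that one.

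Read together, 4 of the 10 antioxidant genes had a log2 ratio above 2 (PRDX1, PRDX2, PRDX3 and PRDX4), beside 79.1% of all 9931 genes tested. None of the 10 had a log2 ratio under -2, beside 7.37% of all genes. Their median was 1.22 against 5.60 over all genes, and it was -0.15 with total counts. With total counts 3 of the 10 were above 2, beside 78.3% of all genes, and 1 was under -2, beside 12.7%. After division by the lower mode 0 of the 10 passed in either direction, and the shares of all genes were 5.78% and 1.16%. In that setting the prior count of 2 was in multiples and not in reads, which draws ratios of few multiples toward 0 by construction. Most genes of the table, unlike 7 of these 10, had 0 control reads.

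Among the 1871 genes with at least 10 reads in each input, where no ratio rests on a 0, the median log2 ratio was -0.61 and 7.8% of genes were above 2, 21.3% under -2. The 7 antioxidant genes there had a median of 0.90, with 1 above 2 and 0 under -2. Set against the median of those genes in the TMM scaling, PRDX1 stood 2.91 higher on the log2 scale, SOD1 2.04, TXNRD1 1.62 and GPX4 1.52. PRDX5 and PRDX6 lay 0.60 and 0.27 above it, and TXN was -0.79 from it. PRDX1 was exceeded by 6.15% of the genes and SOD1 by 12.8%, whereas 67% of the genes had a higher ratio than TXN. TXN was thus the only one of the 7 to lie under the middle of the genes read in both inputs. Total count scaling moved the median of these genes by -1.36, DESeq2 size factors by 0.26 and division by the lower mode by 0.35. Under the last, PRDX1 was at 1.98, SOD1 at 1.22 and TXN at -0.58 against a median of -0.26. All 3 lay nearer to the median there, but the prior count in multiples draws ratios together by construction. Whole multiples without a prior count gave 2.43, 1.56 and -1.53 for these 3 genes.

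**Figure D2:**
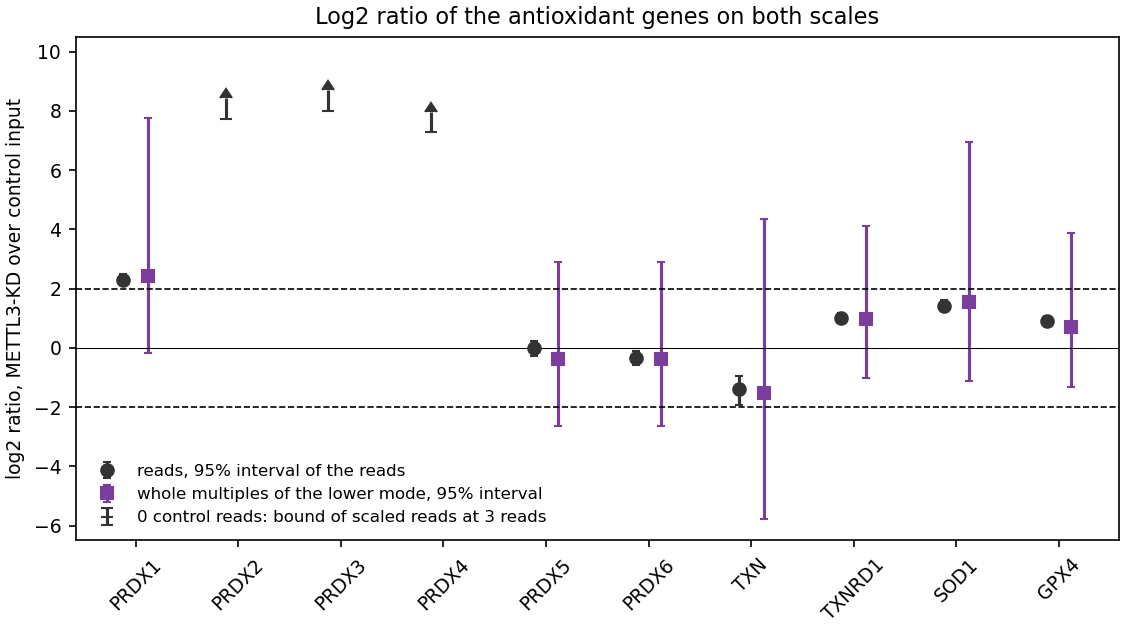
Log2 ratio of METTL3-KD over control input for the 10 antioxidant genes (vertical axis). Circles are TMM-scaled reads and squares are whole multiples of the lower mode, with 95% intervals, arrows start at the bound for 0 control reads taken at 3 reads, and dashed lines mark -2 and 2; with total counts the ratios of TXNRD1 and GPX4 fall under 0 and that of TXN falls under -2.

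The intervals above are narrow because they count each read. Rounded to whole multiples of the lower mode, the 7 genes had 1 or 2 events in the control and between 2 (TXN) and 31 (PRDX1) in METTL3-KD cells, and all 7 intervals of the log2 ratio then included 0. That of PRDX1 ran from -0.16 to 7.77, that of SOD1 from -1.12 to 6.94 and that of TXN from -5.79 to 4.35. On this measure none of the 7 differences was larger than counting error.

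Most control counts of the group were close to the modes. This was common in the control, at 59.4% of the 2212 genes with at least 10 reads, within 0.2 on the log2 scale. PRDX1, TXN and SOD1 lay at 1.08, 0.954 and 1.1 lower modes. PRDX6 and TXNRD1 lay at 2.03 and 1.99, and these genes were all within 0.15 of a whole number. PRDX5 lay at 1.51 and GPX4 at 1.78. In the log2 window GPX4, at 0.878 of the upper mode, counts as near, and PRDX5, at 0.746 of it, does not. In METTL3-KD cells the 7 genes spread from 2.06 lower modes (TXN) to 30.8 (PRDX1). The METTL3-KD counts thus covered a wider range of multiples than the control counts.

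**Figure D3:**
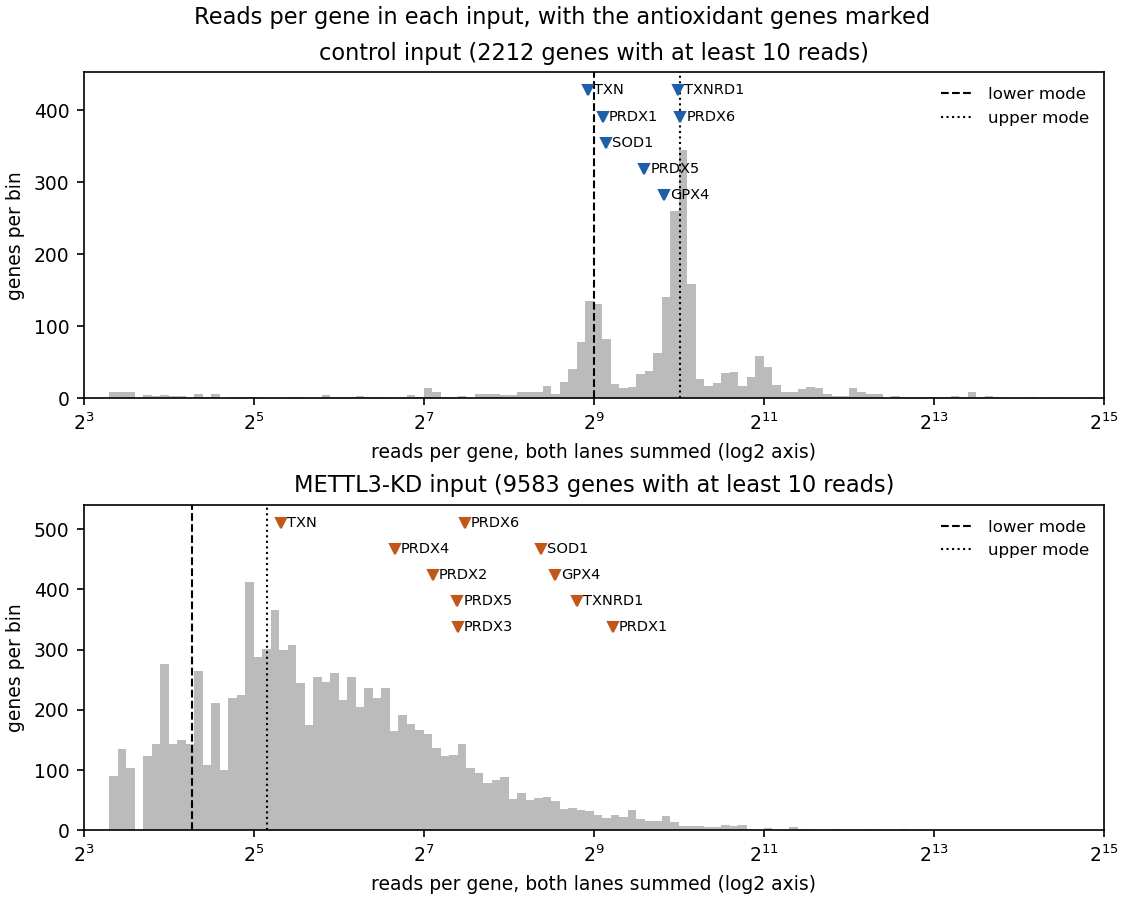
Number of genes per bin (vertical axis) by reads per gene (horizontal log2 axis) in the control input (upper, 2212 genes with at least 10 reads) and the METTL3-KD input (lower, 9583 genes). Vertical lines mark the lower and upper modes and triangles the antioxidant genes, placed at several heights only for legibility; in the control all 7 sit between 488 and 1036 reads.

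**Figure D4:**
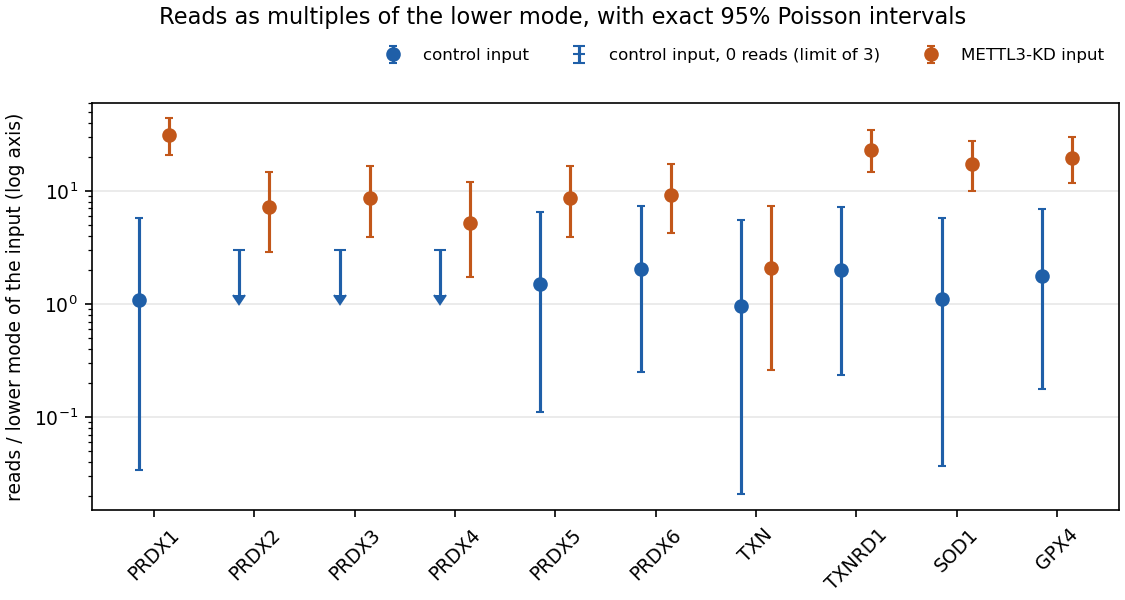
Reads of each antioxidant gene divided by the lower mode of its own input (vertical log axis), with exact 95% Poisson intervals as bars and downward arrows from 3 for a count of 0. The control intervals of the 7 genes with reads overlap one another, and in METTL3-KD cells PRDX1 (30.8) is highest and TXN (2.06) lowest.

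Per length of the canonical transcript, the order in METTL3-KD cells was PRDX1 (344.1 CPM per kilobase), GPX4 (239.1), SOD1 (203.0), PRDX5 (106.6), PRDX2 (81.4), TXNRD1 (63.2), PRDX3 (59.4), PRDX6 (57.8), PRDX4 (57.6) and TXN (29.6). Each gene and the next in this order had overlapping intervals of multiples per kilobase. PRDX1, at 32.6 multiples per kilobase (22.1 to 46.3), lay above the intervals of all but GPX4 and SOD1. In control cells the order of the 7 genes was GPX4 (330.2 CPM per kilobase), PRDX5 (277.6), TXN (204.5), SOD1 (194.3), PRDX6 (189.3), PRDX1 (179.7) and TXNRD1 (81.3), and no interval there stood clear of another. The widest was that of GPX4, 0.209 to 8.08 multiples per kilobase. TXN, lowest in METTL3-KD cells, was the third in control cells, and both placements rest on few multiples.

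The lanes of each library split the reads of most members as they split the library. In METTL3-KD cells, for 10 of 10 genes the interval of the share of reads in the second lane held the 50.6% of all genes. In the control this was so for 5 of 7 genes, and not for PRDX1 (45.8%, 41.7 to 50) or TXNRD1 (54.3%, 51.3 to 57.4), against 50.3% of all control reads. The 21 pseudogenes named after a member had 0 control reads and 1 METTL3-KD read, of PRDX1P1. Of them only PRDX2P4 shared a stretch of at least 75 nt with a member. Apart from PRDX1 and PRDX2, the other 8 antioxidant genes shared no stretch of 75 nt with a transcript of another gene.

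The 4 control m6A peaks lay in PRDX2, PRDX3, PRDX4 and SOD1, so 4 of the 10 genes had a control peak with a q value under 0.01, beside 17.1% of the 8881 genes with at least 10 reads and known coordinates. None of the 10 had a METTL3-KD peak, beside 5.7% of those genes. The peaks were shallow. Those of PRDX2 and PRDX4 rested on a pileup of 2 fragments at the summit, with a fold enrichment of 2.999 over input and a −log10 q value of 6.42. Those of PRDX3 and SOD1 rested on 1 fragment, with a fold enrichment of 1.999 and a −log10 q value of 2.93, and 52% of the 2298 control peaks were of that size. With a q value under 0.001 or a fold enrichment above 2, only the peaks of PRDX2 and PRDX4 were left. Fold enrichment and q value followed the pileup in these 4 peaks, so the 2 cuts are not separate checks. The fold was the same for PRDX3, with 0 control input reads, and SOD1, with 563, so it did not follow the input counts of these genes. The peaks were called once per condition, and the m6A libraries differed in depth, with 7920 distinct positions in the control and 4508 in METTL3-KD cells, so a peak of 1 or 2 fragments in 1 condition alone was not shown to differ from the other.

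Of the 4 control peaks, 3 lay in the 3 genes with 0 control reads and 1 in the 7 genes with reads. Over all genes the shares were close, with a control peak in 17.7% of the genes with 0 control reads and in 15.7% of the others. The methylation word was present on the gene strand in 4 of the 4 peaks, beside 84.3% of 1916 control peaks in genes of 1 strand, and on the other strand in 3 of the 4, beside 80.8%. The word was thus common in peaks of either strand, and its presence did not set the 4 peaks apart from the rest. In position the 4 peaks had little in common, 1 next to the start codon (SOD1), 1 early in the coding sequence (PRDX4), 1 near its end (PRDX2) and 1 in the 3′UTR (PRDX3).

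**Figure D5:**
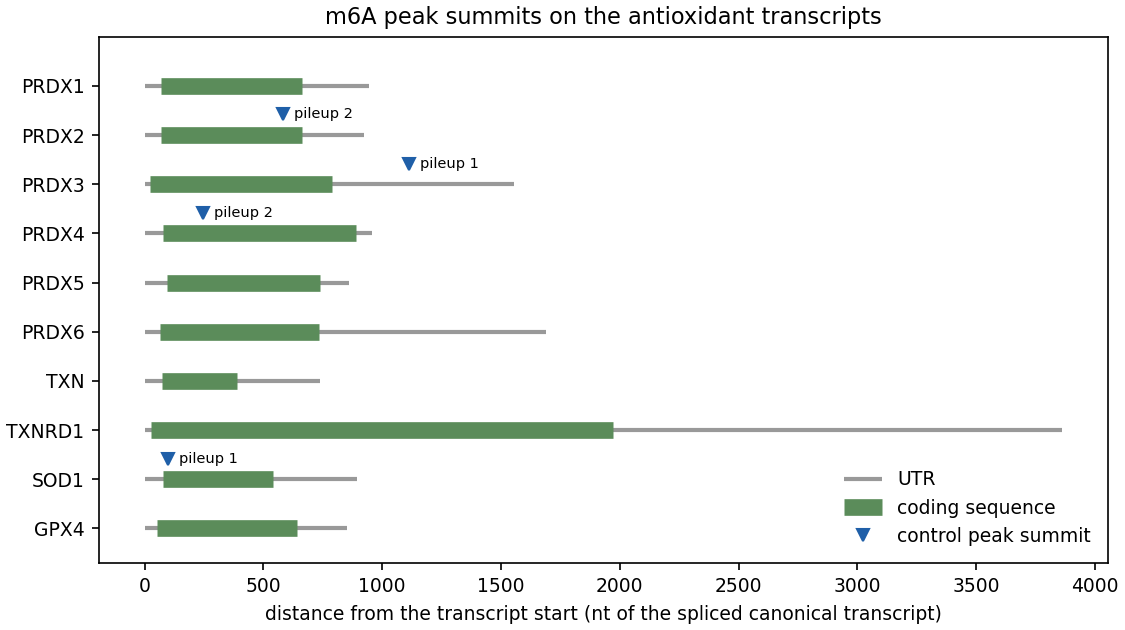
Summits of the 4 control m6A peaks (triangles, with the pileup in fragments) along the spliced canonical transcripts of the 10 antioxidant genes, in nt from the transcript start; thick bars are coding sequence and thin lines UTRs. No METTL3-KD peak was found in these genes, and the summits stand at nt 582 of PRDX2, 1115 of PRDX3, 247 of PRDX4 and 98 of SOD1.

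A wider list of 35 antioxidant genes, of which 34 were matched in the table and 26 had at least 10 reads, gives the surroundings of the group. Of these 26, 20 had a log2 ratio above 2 and 2 under -2, beside 79.1% and 7.37% of all genes tested. The median was 5.81, close to the 5.60 of all genes, and 17 had 0 control reads, beside 74.3% of all genes tested. By group, 3 of 3 other peroxide and superoxide enzymes tested were above 2, as were 7 of 9 thioredoxin partners, 7 of 8 glutathione and glutaredoxin genes and 3 of 6 NRF2 genes. After division by the lower mode, with the prior count in multiples, 1 gene was above 2 and 1 under -2, where the whole table had 5.78% and 1.16%.

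The peroxidases GPX8 and GPX1 and catalase (CAT) had 0 control reads, like PRDX2 to PRDX4, and 71, 38 and 14 METTL3-KD reads. Among the thioredoxin partners, TXNDC5, a disulfide isomerase of the endoplasmic reticulum, had 916 control and 317 METTL3-KD reads and TXNDC12, another thioredoxin-fold protein there, had 1 and 86. SRXN1, sulfiredoxin, which repairs overoxidised peroxiredoxins, had control counts of 523 and 494 and METTL3-KD counts of 13 and 16. Its log2 ratio was -2.91 (-3.52 to -2.41), under the threshold. GLRX5, a mitochondrial glutaredoxin of iron-sulfur cluster assembly, had control counts of 502 and 549 and was at 0 in both METTL3-KD lanes. Its log2 ratio of -8.33, also under the threshold, depends on the prior count. The GLRX5 control count was 2.06 lower modes (0.26 to 7.31). Its METTL3-KD count of 0 allowed up to 3.69 lower modes of that input. On whole multiples of the lower mode the interval of SRXN1 ran from -9.41 to 0.73 and included 0. In the same group as GLRX5, GSTP1 and GLRX3 were at 0 in the control and had METTL3-KD counts of 178 and 155.

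NFE2L2, which encodes NRF2, had 546 control and 82 METTL3-KD reads and a log2 ratio of -0.54 (-0.89 to -0.20). The ferritin subunits FTL and FTH1, NRF2 targets with far more reads than any antioxidant gene above, summed to 5368 and 4798 in the control and 2763 and 1567 after knockdown, and their log2 ratios were 1.23 (1.17 to 1.30) and 0.58 (0.50 to 0.66). On whole multiples the intervals of NFE2L2 (-3.87 to 5.09) and FTH1 (-0.35 to 1.82) included 0, and that of FTL (0.39 to 2.40) did not. NQO1, another NRF2 target, had control counts of 0 and 1 and METTL3-KD counts of 236 and 283. It was the gene of the wider list with peaks in both conditions, 2 control peaks and 1 METTL3-KD peak, which did not overlap. The remaining 5 control peaks of the wider list lay in GLRX3, GSS, KEAP1, TXNDC17 and TXNDC5, with pileups of 1 to 3, and the other 2 METTL3-KD peaks in introns of SOD2 and MGST1, each resting on 1 fragment. Of the 35 genes, not filtered by reads, 6 thus had a control peak and 3 a METTL3-KD peak. Over the genes with at least 10 reads and known coordinates these shares were 17.1% and 5.7%.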

How the data were processed

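Per the labels, RNA libraries were made with a stranded TruSeq kit without oligo-dT beads. The authors removed rRNA reads with Bowtie2, aligned the rest to hg19 with HISAT2 and counted reads per gene with featureCounts; FastQC is also named in the submitters' processing notes. The deposited counts are whole reads per gene and lane of the inputs, not normalized. The annotation release, the strand setting and the handling of reads in several genes are not given in the sources used here, and the count totals exceed the 2880835 and 1337448 input reads in the peak file headers. The authors called peaks with MACS2 2.1.1 on the pooled lanes, with fragments extended to 100 bp and 1 read kept per position. The deposited peak lists give the pileup signal, the fold enrichment (a ratio to input) and −log10 q values (the −log10 p values were not used). Their headers state a q value of 0.05 and the methods 0.01, so 0.01 was used here.

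Samples were grouped by title and shRNA label. L001 and L002 were read as lanes of 1 library and summed. Ratios were computed for genes with at least 10 reads over both inputs with edgeR 4.0.16 (TMM on all genes, prior count 2) in R 4.3.3. Without replicates, a gene was called past a log2 ratio of 2 in either direction. Modes came from a density of log2 reads with a kernel width of 0.1, counting peaks of at least 40% of the highest, and genes within 0.2 of a mode on the log2 scale counted as near it. Levels carry exact Poisson intervals, ratios Clopper-Pearson intervals and shares Wilson intervals, all at 95%. Alternatives were 3 to the scaling (DESeq2 1.42.0 size factors, total counts, division by the lower mode), 2 to the prior count, 2 to the filter, 2 without a lane and 3 with lanes as replicates. For peaks, they were a stricter q value or fold, the full list and other overlap rules. After division by the lower mode, TMM scaling and the prior count of 2 were applied to the multiples, so that prior was in lower modes and not in reads.

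Peaks overlapping a gene body by at least 1 bp were assigned to it. Genes, exons and transcripts came from GENCODE 44 lifted to GRCh37, which is not the release used for counting, and sequences from GRCh37. Gene IDs were matched to symbols without version, 55665 of 63568 in all; SOD2 and PECAM1 of the fixed lists were not matched in the count table. The ratio, copy and word searches were tested on simulated data. All 10 members are named, with the 3 genes of most reads in each group of the wider list, any with a peak, the most read pseudogene and METTL3. MMACHC was chosen after its values were seen. The members and lists were chosen with earlier results of these data known. The sequence of 1 peak region is not reported here.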

Additional observations from a re-analysis of the deposited data

How the results depend on the processing

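With total counts, 1 antioxidant gene (TXN) had a log2 ratio under -2, beside 12.7% of all genes, and the median of the 10 was -0.15. With reads divided by the lower mode, 0 of the 10 were above 2, beside 5.78% of all genes, the median was 1.11, and the wider list had 1 gene above 2 and 1 under -2. The median was 1.47 with DESeq2 size factors and 1.78 with lanes as replicates in DESeq2, and 1.35 to 1.45 without either lane. Lanes of the same number share the lane and not a culture, and with the lanes as replicates in edgeR the median was 1.42 with the lane number as a replicate block and 1.42 with no block. With at least 50 reads, 10 genes of the wider list were above 2, beside 63.7% of all 5651 genes that passed this filter. With a q value under 0.001 or a fold enrichment above 2, 2 control peaks were left in the group. Division by the lower mode kept the prior count of 2 but in multiples, which draws ratios toward 0 by construction. The cause of the other moves in scaling was not tested, and the stricter filters hold fewer genes or peaks by construction. The other 55 values stayed within 1.5 times the reported count or, for the median, within the SD of its values without either lane. The control input has more reads but 9291 distinct positions against 52141, which limits how far low counts there can be read.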
